A study of Homo sapiens with 2 samples.

Results

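LDB1 binds no DNA itself. It forms dimers in the nucleus and links DNA-binding proteins, such as GATA1 and TAL1 with their LMO partners, so that distant enhancers and promoters of blood cell genes are brought together. The 244 LDB1 peaks described here lay on sequence of the human assembly that has no fixed place in a chromosome. They were the rows of the deposited peak list whose sequence name begins with chrUn_ (unplaced contigs) or ends in _random (unlocalised contigs), and they made up 244 of 53742 peaks. An unplaced contig is a stretch of sequence that could not be assigned to any chromosome. An unlocalised contig is assigned to a chromosome, whose number it carries in its name, but not to a position on it. Such contigs are known to hold much satellite DNA, ribosomal DNA and segmental duplications, so that short reads from them often align to several places.

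The series held 2 CUT&Tag libraries of NB4, a human line from acute promyelocytic leukaemia with the PML::RARA fusion, both untreated, 1 with an antibody against LDB1 and 1 with a non-specific IgG. CUT&Tag uses an antibody to bring the Tn5 transposase to chromatin, which it cuts and tags for sequencing. Both libraries carry the same treatment label, and neither had a replicate, so that no test between samples was possible and each value below describes 1 peak list. The list gives a position and a width in bp for each peak and no height, score or read count, so the depth was unknown, and peaks could not be set beside the IgG level. The cell type was not checked against marker genes, since peak positions do not measure expression. All positions are hg38, counted from 1.

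The members were a small share of the list, 0.454% (exact 95% binomial interval 0.399 to 0.515%, which covers counting error in this list only). Of them, 94 lay on 23 unplaced contigs and 150 on 26 unlocalised contigs of 10 chromosomes. In all they covered 178.6 kb, 65.6 kb on unplaced and 113.0 kb on unlocalised contigs. Contigs without a peak were not analysed here, so a contig enters only because it holds at least 1 peak.

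The peaks were spread unevenly over the 49 contigs. The median was 3 peaks per contig, 10 contigs had a single peak, and 20 had 2 to 4 peaks, which together held 49. The other 19 contigs, each with at least 5 peaks, held 185 peaks (75.8%), and the 11 contigs with at least 10 peaks held 138 (56.6%). Of the 19, 6 were unplaced and 13 were unlocalised. The contig with the most peaks was chr16_KI270728v1_random, with 27, followed by chrUn_KI270744v1 with 13 and by chr1_KI270712v1_random and chrUn_KI270442v1 with 12 each. On 3 contigs the first peak began within the first 1000 bp.

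**Figure D1:**
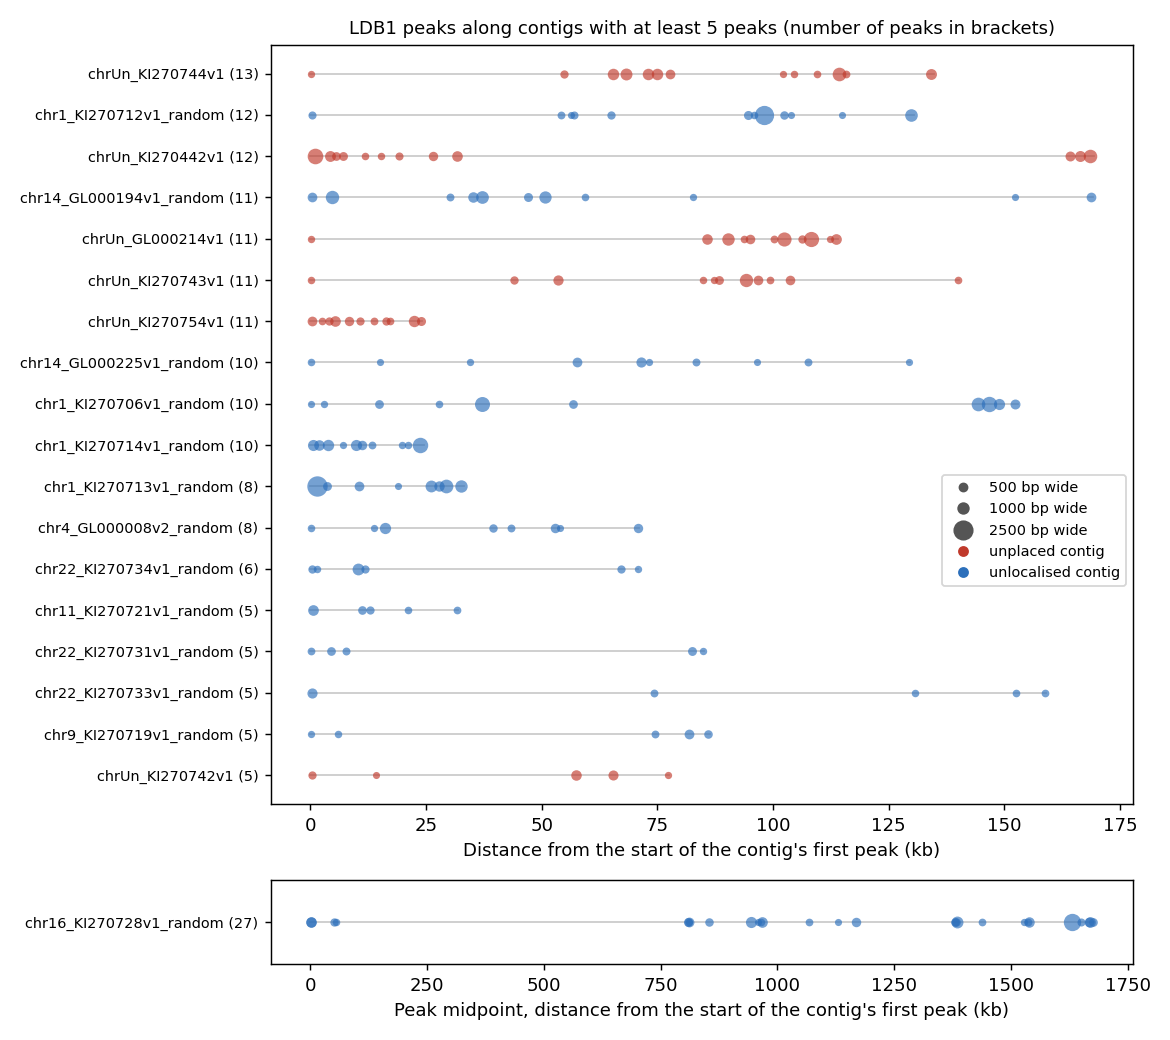
Positions of LDB1 peaks on the 19 contigs with at least 5 peaks, as the distance in kb from the start of the contig's first peak. Each point is 1 peak, its size follows the peak's width, and the colour gives the kind of contig; chr16_KI270728v1_random has an axis of its own because its peaks span 1677 kb. The 11 peaks of chrUn_KI270754v1 lie within 24.2 kb, while the 10 peaks of chr14_GL000225v1_random are spread over 129.7 kb. Contig lengths are not shown.

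On several contigs the peaks stood in 1 dense stretch. When peaks up to 10 kb apart were joined, the longest group was the 11 peaks of chrUn_KI270754v1, which ran from 15591 to 39807. These 11 peaks filled 30.9% of their 24.2 kb, and their widest, at 37510 to 38664, measured 1155 bp. All peaks of this contig therefore fell into a single group, with no gap over 4.39 kb between neighbours. A single group also held all peaks of chr1_KI270714v1_random, whose 10 peaks ran from 16941 to 41588 and filled 35.3% of that stretch. On chr1_KI270713v1_random the 8 peaks likewise formed 1 group, from 3135 to 36429, and filled 29.8% of it. A short contig leaves little room for long gaps, and how far this shaped these single groups was not tested.

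Other contigs had a dense stretch and long empty ones. On chrUn_GL000214v1, 1 peak of 381 bp began at 23350, and the other 10 lay between 108583 and 137491, beyond a gap of 84.9 kb. On chrUn_KI270442v1 no peak was listed before 216496. From there 9 peaks filled 23.2% of 32.2 kb, and after a gap of 131.6 kb the last 3 lay between 380239 and 385809. On chrUn_KI270744v1 there were 2 such groups, 6 peaks between 60559 and 84250 and 5 peaks between 108197 and 122164. On chrUn_KI270743v1, 7 of the 11 peaks lay between 152874 and 172365. On chr1_KI270712v1_random a group of 5 peaks took 48.3% of 9.80 kb, and on chr14_GL000194v1_random a group of 6 took 17.97% of 29.7 kb. In total 10 groups of at least 5 peaks, on 9 contigs, held 77 of the 244 peaks (31.6%), beside 36.6% of the peaks on the assembled chromosomes and 9.32% of those on alternate contigs, which are other versions of placed regions.

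The other contigs with at least 5 peaks had no group of 5, and their peaks stood alone or in small groups. Of all 244 members, 158 (64.8%) had another peak with a midpoint within 10 kb, beside 65.1% of all LDB1 peaks. On chr14_GL000225v1_random 2 of the 10 peaks had another within 10 kb (midpoint to midpoint). Their median gap was 12.9 kb, and their widths had a median of 390 bp with none of 1000 bp or more. On chr22_KI270733v1_random and on chrUn_KI270742v1, 2 of 5 peaks had such a neighbour, with median gaps of 38.7 and 12.4 kb. The 27 peaks of chr16_KI270728v1_random spanned 1677 kb with a median gap of 15.2 kb, and 1 gap of 754.1 kb lay between the peaks at 232500 and 986953. Even so, 19 of these 27 had another peak within 10 kb, in pairs and groups of 3. All 6 peaks of chr22_KI270734v1_random, all 5 of chr22_KI270731v1_random and all 5 of chr9_KI270719v1_random had one too, with median gaps of 3.14, 3.13 and 6.07 kb. On chr4_GL000008v2_random 6 of 8 peaks did (median gap 9.003 kb), and on chr11_KI270721v1_random 3 of 5 did (8.79 kb).

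The ribosomal RNA genes are known to have copies on chr22_KI270733v1_random and on chrUn_GL000220v1, the latter named here after its values were seen. These contigs held 5 and 3 peaks. None of the 8 reached 1000 bp, where 16.4% of all LDB1 peaks did, and 8 peaks are too few to compare. Widths ran from 408 to 922 bp on the first and from 324 to 496 bp on the second. On chrUn_GL000220v1 the peaks began at 123378, 124112 and 144851. The gene table used here leaves 76 of its 59792 genes without a chromosome and names no contig for any gene. No peak on these contigs was therefore assigned to a gene, and whether these 8 peaks overlap a ribosomal RNA gene was not analysed here.

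Peak widths on the contigs ran from 323 to 2898 bp with a median of 559 bp (quartiles 417 and 942 bp). An exact binomial 95% interval of the median, 524 to 631 bp, takes in the median of 550 bp on the assembled chromosomes, which stand for 52779 peaks on chromosomes 1 to 22, X and Y. The unplaced contigs had a median of 556.5 bp and the unlocalised contigs 590.5 bp. The 719 peaks on alternate contigs had a lower median of 482 bp, with an interval of 467 to 501 bp that does not overlap that of the unplaced and unlocalised contigs together. No width of 3000 bp or more was listed among the 244, which allows a share of up to 1.23% counted as 3 peaks of 244, or 1.5005% by the exact 95% interval. On the assembled chromosomes 406 peaks, 0.769%, were that wide, so the absence of very wide peaks is within what this number of peaks can show.

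**Figure D2:**
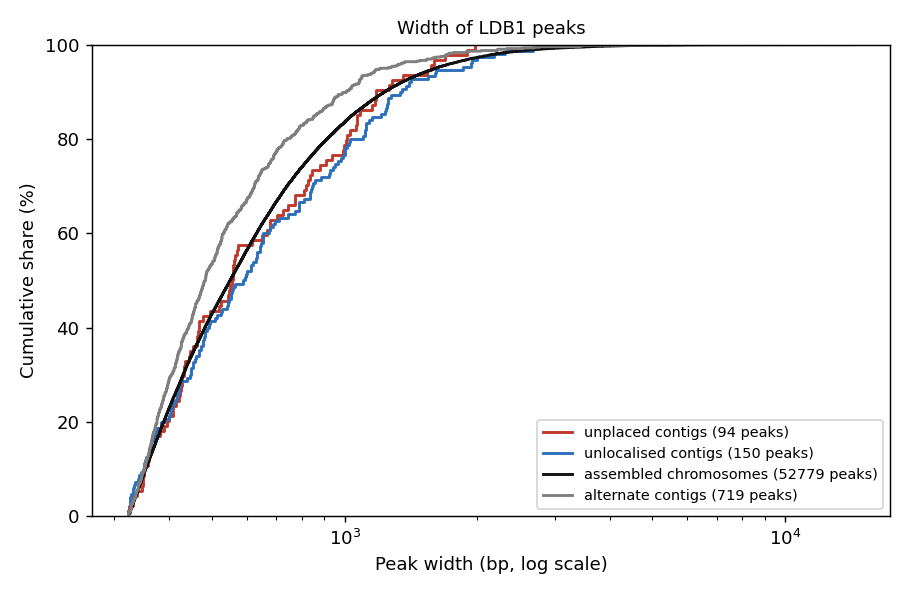
Cumulative share in percent of LDB1 peaks up to each width in bp (log scale) on unplaced contigs (94 peaks), unlocalised contigs (150), assembled chromosomes (52779) and alternate contigs (719). The curves of the unplaced and unlocalised contigs lie near that of the assembled chromosomes up to the median and below it just under 1000 bp, so that they hold more peaks of at least that width (21.3 and 23.3% beside 16.5%); the alternate contigs lie to the left throughout most of the range.

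A larger share of the contig peaks than of the whole list reached 1000 bp. At 2000 bp the share was 2.05%, with an exact 95% interval of 0.669 to 4.72% that takes in the 2.70% of the whole list. Of the 244 peaks, 55 (22.5%, exact 95% interval 17.5 to 28.3%) were at least 1000 bp wide, where 16.4% of all LDB1 peaks were. On unplaced contigs the count was 20 of 94 (21.3%) and on unlocalised contigs 35 of 150 (23.3%). Neighbouring peaks of 1 contig are not independent, so these intervals are too narrow. The excess rested on the contigs with several peaks. The share was 24.3% on the 19 contigs with at least 5 peaks and 16.9% on the others, and it was 15.8% when each contig counted once. The others had 10 wide peaks, all among the 49 peaks on contigs with 2 to 4 peaks, and the contigs with a single peak had none. Among assembled chromosomes the same share ran from 10.1% on chromosome 13 to 23.0% on chromosome 7, and on 2 of 24 it was above that of the contigs.

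The widest members were on unlocalised contigs of chromosome 1. The widest, 2898 bp, lay on chr1_KI270713v1_random (3135 to 6032), and the next, 2681 bp, on chr1_KI270712v1_random (98914 to 101594). A peak of 2309 bp followed on chr16_KI270728v1_random (1808429 to 1810737), with no other peak within 10 kb of its midpoint. Next came 2190 bp on chr17_GL000205v2_random (62332 to 64521) and 2003 bp on chr14_KI270725v1_random (27995 to 29997). These 5 were all the members of at least 2000 bp, 2.05% of the members beside 2.72% of the peaks on assembled chromosomes. The widest peak on an unplaced contig measured 1979 bp and was the first one on chrUn_KI270442v1 (216496 to 218474). The remaining peaks of the widest 10 measured 1947 bp on chr1_KI270714v1_random, 1933 and 1858 bp on chr1_KI270706v1_random, and 1899 bp on chrUn_GL000214v1. At the other end, the 10 contigs with a single peak had peaks of 347 to 744 bp with a median of 456.5 bp.

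Gaps between neighbouring peaks had a lower median on the contigs than on the chromosomes, most clearly on the unplaced contigs. The 195 gaps between neighbours had a median of 5.93 kb (exact 95% interval 3.44 to 8.14 kb, quartiles 1.64 and 19.7 kb). The assembled chromosomes had a median of 9.56 kb and the alternate contigs 16.1 kb. On unplaced contigs (71 gaps) it was 3.44 kb (2.12 to 6.64 kb). On unlocalised contigs (124 gaps) it was 7.75 kb (4.39 to 10.7 kb), and this interval takes in the chromosomes' value. Set beside their own chromosome, the unlocalised contigs had the shorter median gap for 6 of 10 chromosomes and the longer for 4. This count weighs little, since chromosomes 3 and 15 gave 1 gap each, 17 gave 2, and 9 and 11 gave 4 each. A gap of at most 10 kb followed 120 of 195 (61.5%) on the contigs and 50.8% on the chromosomes. A short contig cannot hold a long gap, and how far this shaped the gaps on the contigs was not tested. A limit of 100 kb on gaps was chosen after the data were seen. Under it the medians were 4.77 kb on the contigs (3.42 to 7.79 kb) and 6.68 kb on the chromosomes, inside that interval. The kinds of contig differed. Unplaced contigs had 3.44 kb (2.01 to 4.77 kb), below the chromosomes' value. Unlocalised contigs had 7.59 kb (4.23 to 10.1 kb), above it but with an interval that takes it in. A contig shorter than 100 kb cannot hold gaps up to this limit, and how far contig length shaped these medians was not tested. The smallest gap was 327 bp on the contigs and 324 bp on the chromosomes.

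**Figure D3:**
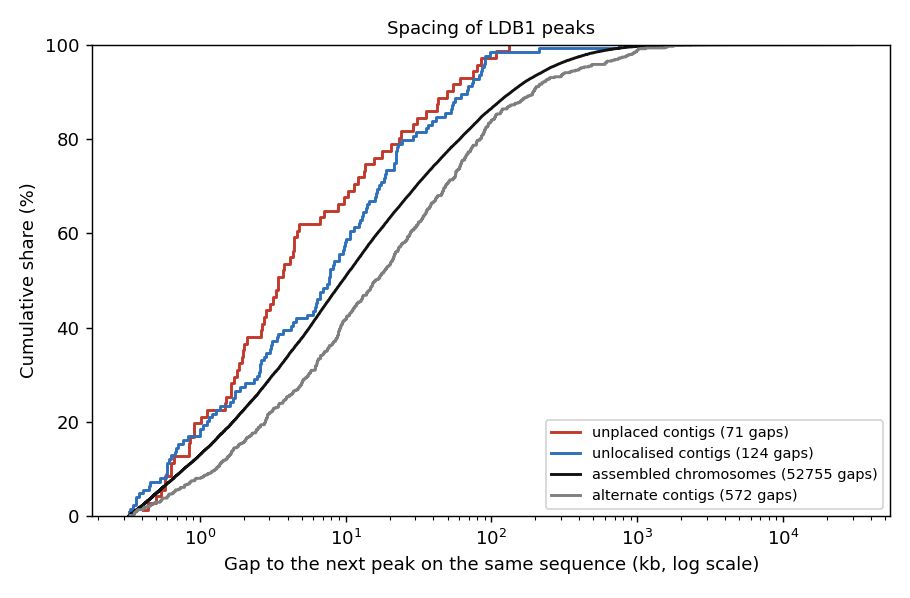
Cumulative share in percent of gaps between neighbouring LDB1 peaks up to each length in kb (log scale), for unplaced contigs (71 gaps), unlocalised contigs (124), assembled chromosomes (52755) and alternate contigs (572). The unplaced contigs rise first, with a median gap of 3.44 kb, and the alternate contigs last, with 16.1 kb.

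Local crowding gave a measure in which long gaps do not count. Of the 244 peaks, 69 (28.3%, exact 95% interval 22.7 to 34.4%) had at least 3 other peaks with a midpoint within 10 kb of their own, close to the 30.5% of all LDB1 peaks. The end of a contig cuts this window short, which can lower the count on contigs. By how much was not tested. The kinds of contig differed: 43 of 94 peaks on unplaced contigs (45.7%, 35.4 to 56.3%) and 26 of 150 on unlocalised contigs (17.3%, 11.6 to 24.4%) were crowded in this way, and the intervals do not overlap. Since crowded peaks come in groups by definition, these intervals too are narrower than the spread between contigs. The crowded peaks lay on 9 contigs in all. All 11 peaks of chrUn_KI270754v1 were among them, as were 10 of 11 on chrUn_GL000214v1, 9 of 10 on chr1_KI270714v1_random, 8 of 13 on chrUn_KI270744v1 and 6 of 8 on chr1_KI270713v1_random. On chrUn_KI270442v1, chrUn_KI270743v1 and chr1_KI270712v1_random there were 7 each, and on chr1_KI270706v1_random there were 4.

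Crowded peaks were wider than lone ones. The 86 contig peaks with no other peak within 10 kb had a median width of 464 bp, and 9 of them (10.5%, 4.90 to 18.9%) reached 1000 bp. With 1 or 2 others the median was 618 bp and 21 of 89 (23.6%, 15.2 to 33.8%) did so. With at least 3 others it was 787 bp and 25 of 69 (36.2%, 24.99 to 48.7%). The assembled chromosomes showed the same order at 10.4, 14.3 and 25.7%. The share was thus 10.5% beside 10.4% for lone peaks, and higher on the contigs in both classes with near peaks. With at least 3 others, 14 of 43 (32.6%) reached 1000 bp without the contigs of chromosome 1, left out after the values were seen. The interval of all contigs takes in the chromosomes' value for lone peaks and for those with at least 3 others. For those with 1 or 2 others it begins at 15.2%, just above 14.3%. Peaks of 1 contig are not independent, so these intervals are too narrow and this margin does not show a difference.

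**Figure D4:**
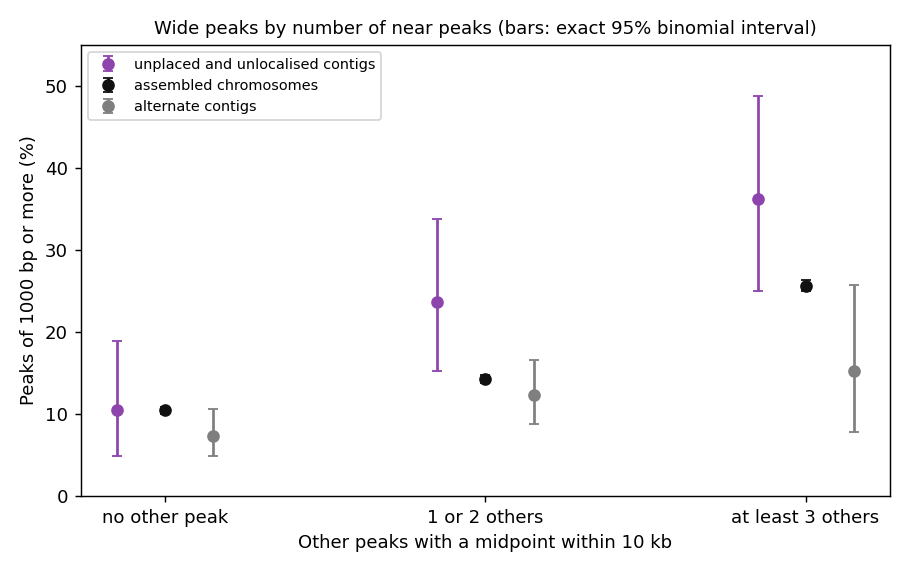
Share in percent of LDB1 peaks that are at least 1000 bp wide, by the number of other peaks with a midpoint within 10 kb, on unplaced and unlocalised contigs together, assembled chromosomes and alternate contigs. Bars are exact 95% binomial intervals; on the contigs the share goes from 10.5% of lone peaks to 36.2% of peaks with at least 3 others, and on the assembled chromosomes from 10.4 to 25.7%.

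The unlocalised contigs of chromosome 1 stood apart from those of the other chromosomes. They were 7 contigs with 44 peaks, of which 40 lay on chr1_KI270706v1_random, chr1_KI270712v1_random, chr1_KI270713v1_random and chr1_KI270714v1_random. All 26 crowded peaks of unlocalised contigs were on these 4 contigs, 59.1% of the 44 (43.2 to 73.7%), where chromosome 1 itself had 28.0%. At least 1000 bp wide were 16 of the 44 (36.4%, 22.4 to 52.2%) beside 16.0% on chromosome 1, with median widths of 663 and 552 bp. Peaks of 1 contig are not independent and crowded peaks come in groups, so both intervals are too narrow. The median gap was 2.35 kb beside 10.4 kb. Among gaps of at most 100 kb the medians were 2.35 and 8.02 kb. How far contig length shaped these values was not tested. This group was singled out after its values were seen. Without it, 39 of 200 contig peaks (19.5%, 14.2 to 25.7%) were at least 1000 bp wide, and the interval then takes in the 16.4% of all peaks.

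No peak with at least 3 near neighbours was found among the 106 peaks on unlocalised contigs of the other 9 chromosomes, which allows a share of up to 2.83% counted as 3 peaks of 106, or 3.42% by the exact 95% interval. Both limits are too tight where peaks come in groups. The 35 peaks on 7 contigs of chromosome 14, an acrocentric chromosome, had a median width of 593 bp beside 508.5 bp on the chromosome. Of these 35, 7 (20%, 8.44 to 36.9%) reached 1000 bp, beside 12.3% on the chromosome, whose value lies inside that interval. On the contig of chromosome 16, 6 of 27 peaks (22.2%) did so beside 17.8%, again inside the interval of 8.62 to 42.3%. Crowding differed more on chromosome 16, with 0 of 27 (exact 95% limit 12.8%) beside 43.1% on the assembled chromosome. The median gap of 15.2 kb had an interval of 2.47 to 52.8 kb, which takes in the 5.41 kb of the chromosome. The 19 peaks on 5 contigs of chromosome 22, also acrocentric, had a median width of 477 bp (408 to 642 bp) beside 597 bp, and 1 of them (5.26%, 0.133 to 26.0%) reached 1000 bp beside 23.0%. Both values of the chromosome lie inside these intervals. None of the 19 was crowded (exact 95% limit 17.6%), beside 49.5% on chromosome 22. This limit and that of chromosome 16 are likewise too tight. The unlocalised contigs of chromosomes 3, 4, 9, 11, 15 and 17 held 2 to 8 peaks each, too few to compare.

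**Figure D5:**
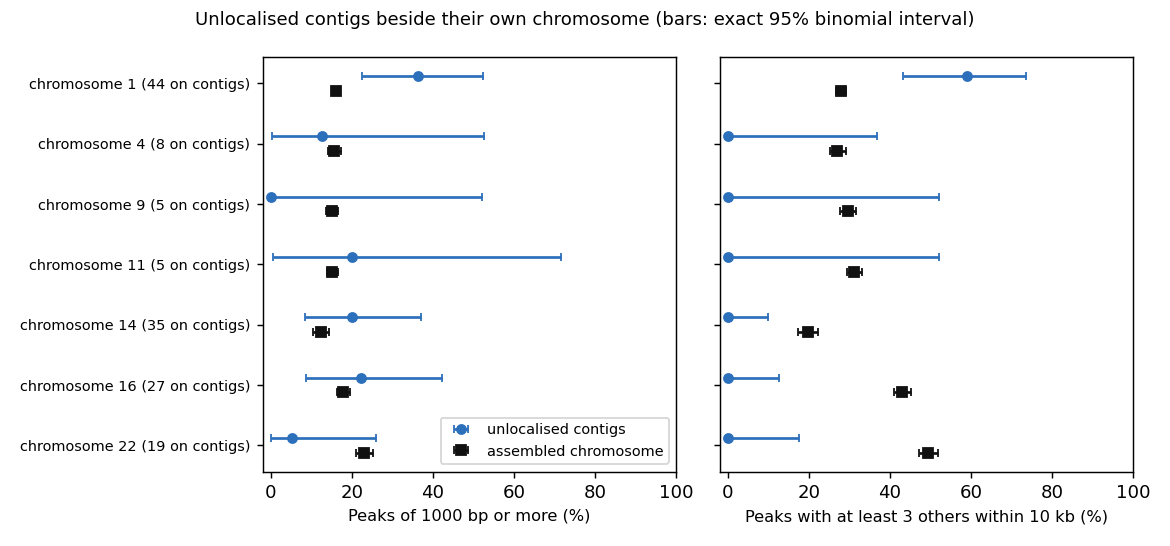
Share in percent of LDB1 peaks that are at least 1000 bp wide (left) and of peaks with at least 3 others within 10 kb (right), on unlocalised contigs and on the assembled chromosome of the same number, for chromosomes with at least 5 peaks on such contigs. Bars are exact 95% binomial intervals. The chromosome 1 contigs lie above their chromosome in both panels, and the contigs of chromosomes 4, 9, 11, 14, 16 and 22 are at 0 in the right one.

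The share of each contig covered by peaks could be given only as an upper limit. Contig lengths were not used here, and the end of the last peak stood in for the length. On this measure the 244 peaks covered 2.73% of 6545 kb, where the assembled chromosomes reached 1.22% and the alternate contigs 0.613%. The values were 2.79% for unplaced and 2.70% for unlocalised contigs. The contigs are short and enter only with a peak, so the limit may lie further above the true share on them than on chromosomes. This was not tested. The highest limit, 93.0%, was that of chrUn_KI270330v1, whose single peak of 453 bp ran from 35 to 487, and it says little. Those that follow were 27.2% on chr1_KI270713v1_random, 20.9% on chr1_KI270714v1_random and 18.8% on chrUn_KI270754v1, the contigs with a single dense group, and 15.04% on chr22_KI270732v1_random, which had 1 peak of 357 bp. Among contigs with at least 5 peaks the lowest limit was 1.07%, on chr16_KI270728v1_random.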

How the data were processed

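Per the submitters' processing notes, reads were handled with the aligner Bowtie2 2.4.1 and the peak caller MACS2 2.0.10, on hg38. Per the labels' protocols, libraries were made with the Vazyme Hyperactive Universal kit. Not given in the sources used here are the caller's threshold, its control, and how duplicate and multiply aligned reads were handled. The last bears directly on repeated sequence. The deposited table gives the start, end and width in bp of each peak.

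Members were taken by sequence name. Widths, gaps (bases between neighbouring peaks of a contig), groups of peaks up to 1 or 10 kb apart, and other peaks with a midpoint within 10 kb were computed in Python 3.11.15 with pandas 2.3.3 and SciPy 1.17.1, in code tested on simulated data. Intervals are exact (Clopper-Pearson for shares, order statistics for medians) at 95% and cover counting error only. The limit of 3 counts is also given beside the counts of 0 for widths of 3000 bp or more and for crowding on unlocalised contigs outside chromosome 1. With 1 library per antibody there was no test and no p-value. No sequence is printed, and no gene was assigned.

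Named contigs were those with at least 5 peaks and the 5 with the largest covered share, and named peaks were the 10 widest and the widest of each named contig. Members, lists and rules were chosen with earlier results of these data known.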

Additional observations from a re-analysis of the deposited data

How the results depend on the processing

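Contig lengths and the IgG level were not used here and the depth was unknown, so narrow peaks could not be told from background. With the widest 50% of all peaks (548 bp or more) 130 peaks lay on the contigs, and with the widest 25% (814 bp or more) 78 did; the share of the list was 0.483% in the first and 0.579% in the second. The median width stayed within its interval in each of the 4 alternatives, from 549 to 590.5 bp. The share of peaks of at least 1000 bp was 21.2 to 23.5% without any single contig of at least 5 peaks, 19.5% without the chromosome 1 contigs and 15.8% as a mean over contigs, the last below the 16.4% of all peaks. The covered share was 4.07% with the length taken from the first peak start to the last peak end, 2.01% with the widest 50% of peaks and 3.38% without chr16_KI270728v1_random. The median gap was 6.38 kb between midpoints, 4.19 kb on contigs of at least 5 peaks and 4.57 kb without chr16_KI270728v1_random. Joining peaks up to 1 kb apart gave 207 groups, with at most 3 peaks each, and joining at 10 kb gave 124. The share of peaks with at least 3 others was 7.79% within 5 kb and 42.6% within 20 kb, where the assembled chromosomes had 10.8 and 49.8%. It was 21.5% without the chromosome 1 contigs and 24.9 to 31.8% without any single contig of at least 5 peaks. The alternatives on single contigs, on chromosome 1, on crowding and on gaps up to 100 kb were chosen after the data were seen.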
